A study of Macaca mulatta with 16 samples.

Results

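Of 24288 autosomal CCCGGG sites followed in the blood DNA of rhesus monkeys, 1495 (6.16%) were partly methylated in infants, with a mean level of 35% or more and under 65%. A site was followed when 10 or more of the 13 libraries from monkeys fed ad libitum (AL) had 100 reads or more there, and its level was the mean over the AL-infant libraries with at least 100 reads there. All 4 AL-infant libraries contributed to 1429 of these sites, 3 libraries to 52 and 2 libraries to 14. The sites were thus chosen by their infant level, which is given as a description and was not tested. The choice depends on the scale, since 1039 sites lay in the window before correction and 436 of them were among the 1495.

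Cytosine methylation at CpG dinucleotides is copied at cell division, and most CpG sites of a tissue are either nearly unmethylated, as in CpG islands, or nearly fully methylated. A level in between can belong to a site at which the maternal and the paternal copy differ, as in imprinted regions, to a site that differs between the cell types of a mixture, or to a site that differs between individuals. Imprinted regions are known for a level set in the germ line and kept in most tissues, whereas age-related methylation drift moves sites with age toward intermediate values. Gene and imprinting annotation of the rheMac2 build was not used here, so sites are given by their rheMac2 position and no site is called imprinted.

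Methylation was measured by DREAM, in which SmaI cuts unmethylated CCCGGG sites, XmaI then cuts the methylated ones, and sequencing tells the ends apart. Each of the 16 libraries came from the whole blood of one monkey of the Wisconsin primate colony. The 4 AL-infant monkeys (numbers 49 and 52, female, 0.8 years; 54 and 57, male, 0.9 years) are called young in the labels. The 5 AL-middle monkeys were 10.4 to 12.1 years old (40 female; 17, 42, 43 and 46 male), and the 4 AL-old monkeys 21.9 to 29.8 years (2 female; 7, 24 and 33 male). The 3 CR-old monkeys (1, 4 and 28, all female, 23.7 to 25.1 years) were kept on caloric restriction (CR). Age class and diet are the only differences the labels give between the groups beside sex.

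Libraries held 8075854 to 129172235 reads at SmaI sites, and the median depth at the 1495 sites ran from 200 reads in AL-old 24 to 4181 reads in CR-old 28. At 100 reads, a reading of 50% has a Wilson 95% interval of 40.4 to 59.6%, for counting error only. The corrected percent, the main scale here, multiplies the odds of methylation by 1 constant, which the authors set for each library with their spiked-in standards. These constants ran from 0.398 to 0.460 in AL-infant, 0.469 to 0.728 in AL-middle, 0.250 to 0.424 in AL-old and 0.494 to 0.772 in CR-old. The uncorrected percent is methylated reads over all reads. One partly methylated standard, Luc306, read under 35% before correction in all AL-middle libraries and in CR-old 1 and 28, and over 35% in all others. This reading splits the libraries into sets that the labels do not give. A difference of AL-middle and one of its set of libraries cannot be told apart. Sites near 50% move most in points when the odds are multiplied, so the main results are given on both scales, and levels are corrected where no scale is named.

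The infant levels were spread over the window, with a median of 52.7% and quartiles of 43.7 and 59.6%. In AL-middle the same sites had a median of group means of 50.8%, in AL-old of 39.7% and in CR-old of 53.8%. A mean of 35 to 65% was kept by 77.5% of the sites in AL-middle, 61.3% in AL-old and 71.4% in CR-old. Most departures in AL-old were downward, with 34.0% of the sites under 35% and 4.68% at 65% or more, whereas in CR-old 9.36% lay under 35% and 19.2% at 65% or more. Blood cell composition was not measured, and a change in the proportion of a cell type and a change within cells cannot be told apart.

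After correction the single libraries set only AL-old apart, and the other groups overlapped. Over the 1495 sites the corrected median per library was 51.3, 55.1, 52.6 and 51.7% in AL-infant 49, 52, 54 and 57. It was 53.7, 48.6, 55.4, 49.4 and 47.1% in AL-middle 17, 40, 42, 43 and 46. The AL-old libraries 2, 7, 24 and 33 had 41.4, 45.1, 35.5 and 35.5%, all below every other library. CR-old 1, 4 and 28 had 56.1, 49.8 and 54.8%. Before correction the picture differed. AL-infant lay highest at 70.9 to 73.0%, AL-middle at 61.5 to 65.5% and CR-old at 62.3 to 66.8%, and the AL-old libraries spread from 60.2 to 72.1% across all of these. AL-old 7, at 72.1%, and AL-old 24, at 68.8%, had the smallest constants of all libraries.

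**Figure D1:**
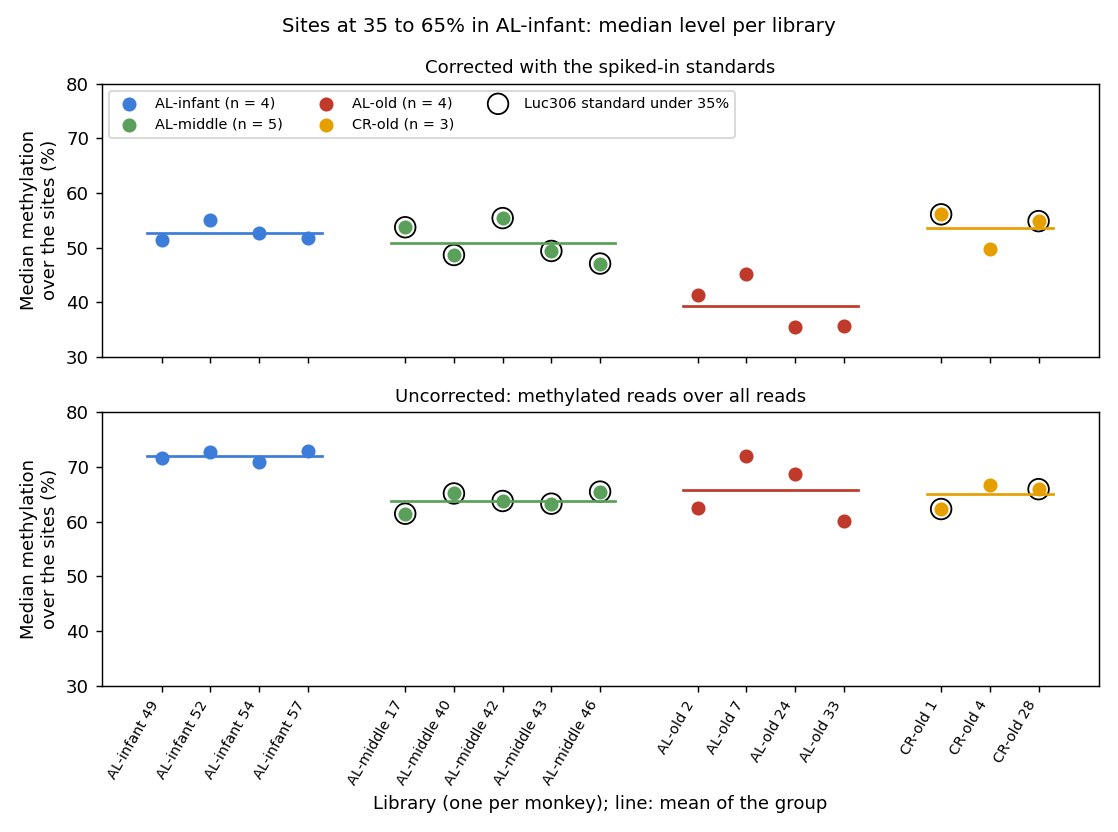
Median methylation over the 1495 sites in each library (percent, y axis) with the group mean as a line, corrected (top) and uncorrected (bottom); circled points are libraries in which the Luc306 standard read under 35%. After correction the 4 AL-old libraries sit at 35.5 to 45.1%, under all others, while before correction they spread over 60.2 to 72.1% and overlap every other group.

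The spread between monkeys holds animal differences, counting error and the correction constant of each library, which shifts all its sites together. In AL-old the constants ran from 0.250 to 0.424, and their part in the spread was not tested. The median SD between monkeys of a group was 5.97 points in AL-infant, 6.14 in AL-middle, 7.71 in AL-old and 6.08 in CR-old, against median counting SDs of 2.58, 2.45, 2.34 and 1.59 points. An SD of 10 points or more occurred at 15.9% of the sites in AL-infant, 14.3% in AL-middle, 30.0% in AL-old and 20.1% in CR-old. Among all 24288 tested sites the shares were 2.25, 2.59, 13.5 and 3.93%. Sites at 65 to 90% in infants had 4.29, 5.17, 34.9 and 7.51%, so the AL-old share was not particular to the window. Of the 1040 sites with at least 100 reads in all 16 libraries, 37 (3.56%) stayed at 35 to 65% in every library, and 79 had a range of 50 points or more.

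The comparison of AL-old with AL-middle asked whether these sites change in later adult life, in groups that the choice of sites did not use. After correction the typical site was lower in AL-old, by a median of 10.4 points over the 1419 sites tested, and 1176 of them had a lower group mean. All tested sites, most of them near 0% or 100%, had a median difference of -0.24 points. A quasi-binomial model with the correction as offset called 378 of the sites (26.6%) lower, where 14.5% of all 23073 tested sites were called lower, and 37 (2.61%) higher, where 2.47% of all were. Sites at 65 to 90% in infants were called lower more often (36.1%), those at 90% or more at a like share (23.6%) and those at 5 to 35% less often (11.4%). Every AL-old library lay below every AL-middle library at 27.3% of the sites, and at 17.2% of all tested sites.

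That direction rested on the correction. Without it the median difference over the same sites was 1.54 points, higher in AL-old, and the model called 23 sites lower (1.36% of all tested sites) and 220 higher (12.7% of all). With limma on the corrected values 206 sites were lower and 4 higher, together 14.8% of the sites where 14.7% of all tested sites were called. The count of lower sites fell to 202 without AL-middle 17, and the count of higher sites to 17 without AL-old 2, 22 without AL-old 7, 16 without AL-middle 17 and 20 without AL-middle 46.

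Some sites separated AL-old from AL-middle on both scales: 15 sites were called higher and 26 lower with no overlap of the groups before or after correction. The largest rise was at chr17:92412636, where AL-middle read 37.5, 50.9, 34.96, 47.0 and 44.0% and AL-old 2, 7 and 33 read 90.9, 91.2 and 77.6% (AL-old 24 had too few reads). The CR-old libraries with enough reads there, 1 and 28, read 70.6 and 99.3%, the first below and the second above all AL-old readings. At chr3:49613217 the AL-old libraries read 63.9, 78.4, 74.1 and 75.1%, against 25.7, 32.7, 31.3, 41.9 and 58.3% in AL-middle (difference in log odds 1.87 ± 0.23 SE, adjusted p = 0.00195). This site also varied among the infants, which read 46.5, 28.6, 48.4 and 28.1%, and CR-old 1 read 47.6% while CR-old 4 and 28 read 84.9 and 76.4%. The third, chr11:133844364, read 82.2 to 88.1% in AL-old and 41.5 to 79.6% in AL-middle.

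Losses of the same kind were found at chr1:32708618, where AL-middle read 64.6, 48.3, 65.5, 57.8 and 54.7% and AL-old 18.6, 34.4, 22.4 and 20.6% (adjusted p = 0.00419). CR-old 1 and 28 read 62.7 and 62.4% there and CR-old 4 read 40.7%, all above the AL-old libraries. At chr8:135768108 AL-middle read 38.6 to 61.1% and AL-old 2, 7 and 33 read 12.3, 13.2 and 19.3% (adjusted p = 0.000837). The site at chr4:163679902 read 58.01 to 80.8% in AL-middle and 36.8 to 44.9% in AL-old (SD 3.56 points, n = 4).

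The comparison of CR-old with AL-old asked how the sites stood in old monkeys under the other diet, again in groups the choice did not use. After correction the sites were higher in CR-old by a median of 13.4 points over the 1444 tested, and 1287 of them had a higher mean there. Over all tested sites the median difference was 0.76 points. The model called 485 sites (33.6%) higher in CR-old, where 16.2% of all 23529 tested sites were, and 18 (1.25%) lower, where 0.684% of all were. Sites at 65 to 90% in infants were called higher at 40.1%, and those at 90% or more at 22.8%. Every CR-old library lay above every AL-old library at 591 sites (40.9%), and at 23.9% of all tested sites.

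Uncorrected, the median difference was -0.44 points, and the model called 2 sites higher (0.319% of all tested sites) and 75 lower (3.49% of all), together 77 where 3.81% of all were called. CR-old 4 is the CR-old library in the same set as AL-old by the Luc306 standard, and with it alone the median difference was 9.96 points corrected and 1.51 points uncorrected. With 1 CR-old library the spread came from AL-old alone, and the model called 0 of 1482 sites and 0 of all 23915, with 230 of the sites at an unadjusted p under 0.05 (120 without the correction). Limma on the corrected values of all 3 CR-old libraries called 0 of 1444, with 538 at an unadjusted p under 0.05. Counts of higher sites fell from 485 to 312 without CR-old 1, 265 without AL-old 2, 275 without AL-old 24 and 321 without AL-old 33. Those of lower sites fell from 18 to 4 without AL-old 2, 8 without CR-old 1, CR-old 4 or AL-old 7, 9 without AL-old 24 and 11 without AL-old 33. All 3 CR-old monkeys were female and 1 of 4 AL-old monkeys was. With sex as a term, which sets CR-old against AL-old 2 alone with the spread of all 7 libraries, the model called 0 of 1438 sites and 0 of all 23456, with 381 of the sites at an unadjusted p under 0.05. Within the AL libraries, with age class in the model, sex gave 0 calls among 1398 sites and 0% of all 22867 tested sites, with 97 of the sites at an unadjusted p under 0.05.

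Both scales separated CR-old from AL-old at 34 called sites that were higher and 10 that were lower in CR-old. The site at chr4:163679902, already named, read 74.1, 77.7 and 68.8% in CR-old 1, 4 and 28 and 44.9, 38.2, 38.9 and 36.8% in AL-old (log odds 1.44 ± 0.13 SE, adjusted p = 0.00282). CR-old there lay in the range of AL-middle, and AL-old below it, while the infants ran from 43.2 to 81.2%. At chr8:21834901 the CR-old libraries read 72.5, 58.01 and 63.5%, the AL-old libraries 25.8, 42.7, 26.2 and 30.4%, and AL-middle 47.6 to 63.9%. At chr11:42483723 CR-old read 68.1, 52.1 and 64.96% and AL-old 24.2, 40.1, 24.6 and 25.4%. The difference at these sites was 33.8, 33.4 and 33.2 points corrected and 15.1, 17.8 and 18.5 points uncorrected.

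Among the lower sites, chr20:578907 read 20.5, 26.6 and 28.2% in CR-old and 62.0, 36.1, 47.1 and 55.6% in AL-old (adjusted p = 0.046). AL-middle resembled CR-old here, at 17.6, 27.1 and 32.1% in the libraries with enough reads, and the infants resembled AL-old at 41.1 to 59.1%. This grouping follows the library sets except for CR-old 4, which belongs to the set of AL-old and AL-infant and read 26.6%. The site at chr15:1772508 showed the same grouping, with 30.0, 41.7 and 34.3% in CR-old, 44.3 to 62.8% in AL-old, 29.4 and 37.2% in AL-middle 17 and 43, and 46.3 to 71.4% in infants. At chr9:125354792 the CR-old libraries lay within 2 points of one another, at 47.6, 47.7 and 49.4%, below AL-old at 56.6 to 77.4%.

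Comparisons with AL-infant share the values that chose the sites and are given as a description. AL-old was called lower at 495 of 1476 sites (22.2% of all tested sites) and higher at 35 (14.9% of all), with a median difference of -11.2 points corrected and -5.17 uncorrected. AL-middle was called lower at 200 of 1410 (11.9% of all) and higher at 127 (17.5% of all), with -0.86 points corrected and -7.33 uncorrected. Without the correction AL-old was called different at 305 sites (29.7% of all), 91 higher and 214 lower (18.1 and 11.6% of all), and AL-middle was called lower at 624 (29.7% of all) and higher at 33 (10.6% of all). The count of 200 was 133 without AL-infant 52. AL-infant and AL-old lie in the same library set by the Luc306 reading.

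The sites were then divided by what they did between AL-infant and AL-old. A site was variable among infants when the SD over AL-infant was 10 points or more. Of the others it was falling or rising when the AL-old mean was at least 10 points lower or higher, stable when the means differed by less than 5 points and the SD over AL-old was under 10 points, and intermediate otherwise. This gave 156 stable (10.4%), 717 falling (48.0%), 48 rising (3.21%), 320 intermediate (21.4%) and 235 variable sites (15.7%), with 19 left unclassed for want of libraries. On uncorrected values the same limits gave 340 stable sites, of which 91 were among the 156, and 458 falling sites, of which 444 were among the 717. The levels in AL-infant and AL-old chose the classes, and only those in AL-middle and CR-old were free to differ.

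**Figure D2:**
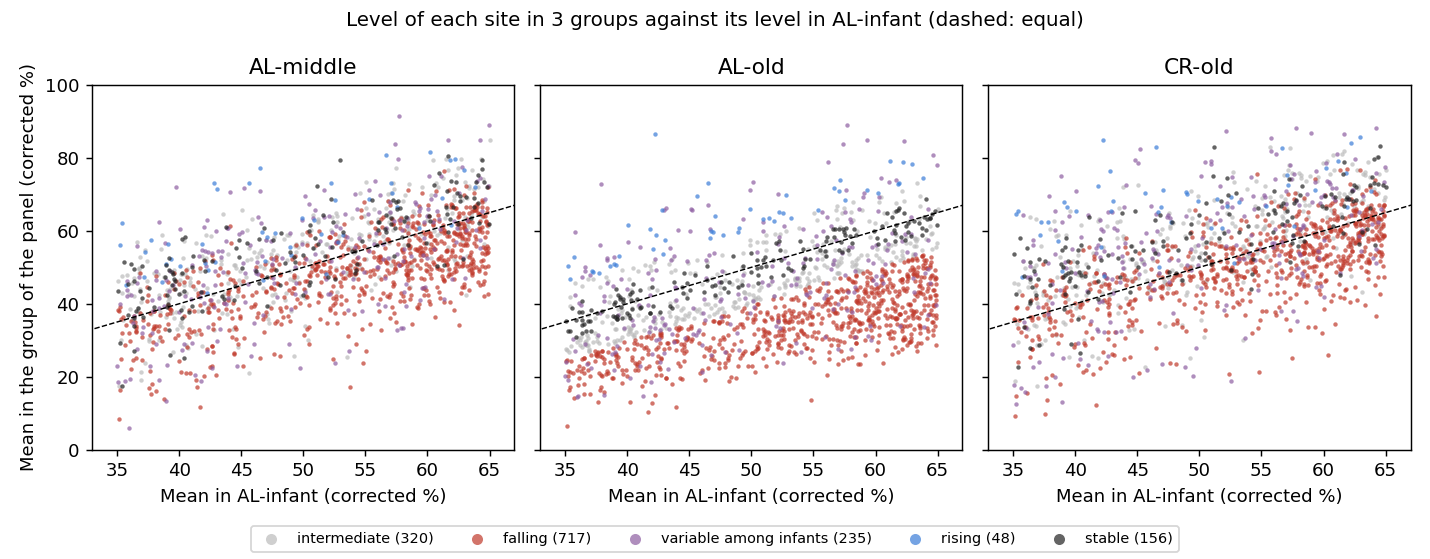
Mean corrected methylation of each site in AL-middle, AL-old and CR-old (y axis, percent) against its mean in AL-infant (x axis, percent), coloured by class; the AL-infant and AL-old means define the classes. The class rule sets how far falling sites lie below the dashed line of equality in AL-old. Their medians were 49.3% in AL-middle, 34.4% in AL-old and 51.2% in CR-old. Uncorrected, these medians were 62.1, 60.1 and 62.8%.

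Falling sites started high in the window, with a median of 56.0% in AL-infant, and had 49.3% in AL-middle, 34.4% in AL-old and 51.2% in CR-old. Uncorrected, the same medians were 74.5, 62.1, 60.1 and 62.8%. Rising sites had 47.4, 59.3, 63.4 and 67.4% in the same order, and 67.5, 70.9, 83.0 and 76.6% uncorrected, where CR-old lay below AL-old. Infant levels took part in choosing both classes, so nothing is read from the distance between the infants and the other groups. Stable sites had 50.2, 53.3, 48.9 and 56.8%, and 69.9, 66.5, 73.8 and 67.6% uncorrected. Of the stable sites 76.3% were at 35 to 65% in AL-middle and 67.3% in CR-old, where the falling sites had 81.2 and 82.3% and the rising sites 64.6 and 31.3%. The model called 24 of 147 stable sites (16.3%) in AL-old against AL-middle, where 17% of all tested sites were called. In CR-old against AL-old it called 37 of 153 (24.2%), where 16.9% of all were. Without the correction it called 53 (36.1%, 14.1% of all) and 18 (11.8%, 3.81% of all).

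A comparison of given classes within a library does not depend on its correction constant when it is made on the odds. The classes themselves were chosen on corrected values, so the sites compared do depend on the constants of AL-infant and AL-old. In AL-infant the median falling site exceeded the median stable site by 0.36, 0.41, 0.26 and 0.26 in log2 odds of the uncorrected percent. In AL-middle it lay below it, with -0.18, -0.61, -0.37, -0.32 and -0.24 in 17, 40, 42, 43 and 46. AL-old 2, 7, 24 and 33 had -0.95, -0.58, -0.90 and -1.29, values that the choice of the classes favours. In CR-old 1, 4 and 28 the difference was -0.17, -0.65 and -0.43. The CR-old values thus spanned the range of AL-middle, and CR-old 4 alone lay inside the AL-old range. The signs were the same in all 5 AL-middle and all 3 CR-old libraries, in both library sets.

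Rising against stable sites gave another order. The log2 odds differed by -0.20 to 0.04 in AL-infant, by 0.19 to 0.57 in AL-middle and by 0.54 to 1.15 in AL-old. The AL-infant and AL-old values are ones that the choice of the classes favours. CR-old 1, 4 and 28, with 0.65, 0.59 and 0.68, all lay above every AL-middle library and within the AL-old range. The gap was small for CR-old 4, at 0.586 against 0.573 in AL-middle 43.

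**Figure D3:**
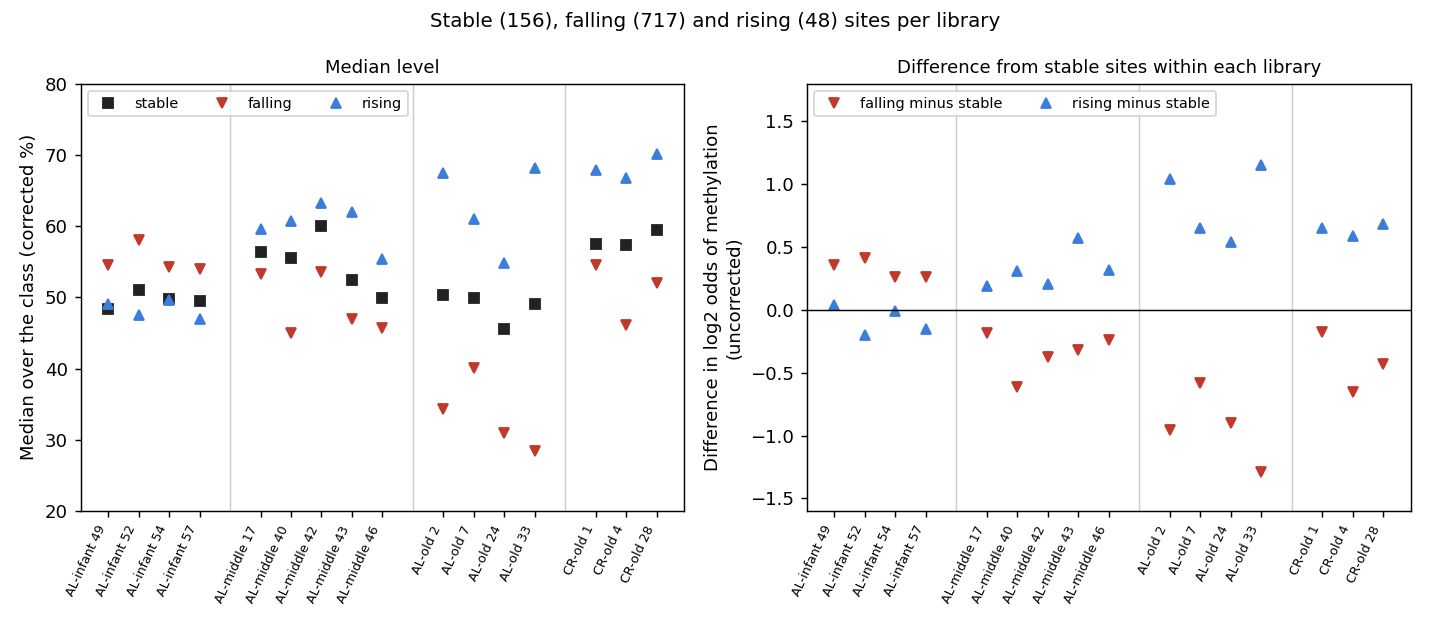
Left, median corrected percent of stable, falling and rising sites in each library; right, difference of the falling and of the rising median from the stable median within each library, in log2 odds of the uncorrected percent. Falling sites lie 0.17 to 0.65 below stable sites in CR-old, as in AL-middle (0.18 to 0.61), while rising sites in CR-old (0.59 to 0.68) lie inside the AL-old range. The AL-infant and AL-old levels chose the classes, which favours the AL-infant and AL-old values shown.

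Stable sites came together in 8 places where at least 2 of them lay within 2000 bp of the next site of the window. The one with the least spread was chr10:5674241-5674485, with 3 sites, 2 of them stable. Its first site read 41.4, 39.3, 45.4 and 41.4% in AL-infant, 35.2, 39.0, 35.1, 41.8 and 38.4% in AL-middle, 34.4, 35.04, 38.3 and 41.6% for AL-old and 39.9, 41.3 and 42.4% in CR-old. Its SD over all 16 monkeys, 3.15 points, was the lowest of the 1040 sites read in full, of which the highest was 26.4 and the median 10.1. The other sites of the stretch ran from 32.1 to 44.9% and from 34.9 to 44.8% over the libraries with enough reads. Uncorrected, the first site read 62.5% on average in AL-infant, 51.0% in AL-middle, 63.9% in AL-old and 53.0% in CR-old, so the closeness of the libraries appeared after correction. The model called this site lower in AL-old than in AL-infant (log odds -0.25, adjusted p = 0.0411), the 1 stable site of 156 that it called there. The stable class was chosen by a small difference between these groups, which favours few calls in advance. Another stretch with 2 stable sites, chr10:5640370-5640533, lies 33708 bp away with no tested site between, and its sites read 28.9 to 58.1%.

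The stretch with the most stable sites, 3, was chr8:142595009-142595223. Its middle site, the deepest, read 43.7, 56.0, 54.5 and 47.5% in AL-infant, 48.5, 65.2, 59.97, 58.9 and 67.1% in AL-middle, 49.4, 42.5, 56.8 and 59.4% for AL-old and 42.3, 53.9 and 60.1% in CR-old. All 4 groups overlapped here. At chr7:164107645-164107785 both sites were below 50% in every library, with 29.8 to 48.2% at the first and 34.7 to 46.3% at the second. There CR-old read 44.5 to 46.3% at the second site and AL-middle 37.1 to 41.8%.

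In 3 other stretches with stable sites every site had its highest mean in CR-old after correction, and 4 of the 7 sites before it. The site at chr7:131895950, which is falling, was among the 7 and among the 4. Both sites of chr7:164107645-164107785 also had their highest mean in CR-old after correction, at 42.6 and 45.1%. At chr16:70914889-70915086 the first site had means of 47.1% in AL-infant, 47.5% in AL-middle, 42.4% in AL-old and 57.3% in CR-old (SD 4.06, 5.27, 7.78 and 8.28 points). The second site of chr9:118215653-118215746 read 68.2 and 74.4% in CR-old 1 and 28 but 44.5% in CR-old 4, in the range of 36.3 to 57.4% of the AL libraries, and its neighbour showed the same split, with 55.1, 62.8 and 36.2%. For the second site of chr9 the model did not call CR-old against AL-old (log odds 0.91 ± 0.29 SE, adjusted p = 0.0756). In chr7:131895708-131896200, with 3 sites, the CR-old readings, 60.9 to 71.7%, lay above all AL-old readings, 35.9 to 58.9%, and the AL-middle readings of 51.5 to 72.6% overlapped both.

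The steepest falling site read in full was chr10:92128667. It read 47.5, 60.4, 48.9 and 62.3% in AL-infant, 27.0, 24.7, 21.4, 32.5 and 13.9% in AL-middle, 15.3, 13.3, 13.7 and 12.2% for AL-old and 15.4, 14.2 and 34.4% in CR-old. AL-middle did not overlap the infants, and AL-old was called lower than AL-middle (log odds -0.82 ± 0.15 SE, adjusted p = 0.00782). The site was chosen for its fall from AL-infant to AL-old. High infant values favour the lack of overlap in advance, and low AL-old values favour that call. Only 1 of the 3 CR-old libraries, 28, lay above AL-old by more than 1 point. From infants to AL-old the level fell by 41.1 points corrected and by 41.3 points uncorrected.

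The next steepest falling sites kept the order AL-infant, AL-middle, AL-old in their means, with CR-old near AL-middle, after correction. At chr20:64752387 the means were 58.8% in AL-infant, 47.0% in AL-middle, 23.5% in AL-old and 45.1% in CR-old, with SDs of 1.73, 5.52, 5.74 and 5.25 points, and every CR-old library, 41.5 to 51.2%, lay above every AL-old library, 16.4 to 30.3%. Uncorrected, CR-old read 54.3 to 59.0% there, and AL-old 7 and 24, at 57.7 and 56.6%, lay in that range. The same site was called both in AL-old against AL-middle (adjusted p = 0.0105) and in CR-old against AL-old (adjusted p = 0.0245). The falling sites named here were chosen by their fall from AL-infant to AL-old, so their low AL-old values favour both calls in advance. The choice also favours the place of AL-infant and AL-old in the order of the means. At chr5:122979514 the means were 56.1, 38.1, 20.4 and 37.8%, with adjusted p = 0.0194 and 0.0471. The sites at chr1:5974370 (64.9, 42.7, 28.7 and 47.3%) and chr12:98820324 (61.8, 40.5, 26.8 and 44.2%) were not called in AL-old against AL-middle (adjusted p = 0.0742 and 0.191), and uncorrected their AL-old means were 1.51 and 2.11 points below AL-middle, where the corrected ones were 13.9 and 13.7 points below.

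The median SD over AL-old was 8.12 points at rising sites, against 7.03 at falling sites. The largest rise among rising sites read in full was at chr19:684135. The infants read 58.01, 43.8, 38.9 and 41.6% there, AL-middle 66.9 to 79.5%, AL-old 67.02 to 75.9% and CR-old 63.4 to 74.4%. No AL-middle library overlapped the infants, but the choice of the site by its rise favours low infant values in advance. At chr19:44841531 the infants stayed within 37.9 to 44.4%, whereas AL-middle spread over 36.2 to 70.4%, AL-old over 44.8 to 75.8% and CR-old over 60.04 to 85.0%. The infants were closest together at chr17:470164, with 60.2 to 62.2% (SD 0.84 points), and AL-middle ran there from 54.3 to 85.6%, AL-old from 67.4 to 90.3% and CR-old from 64.3 to 93.8%. At chr18:70248089 the 3 CR-old libraries, 70.6 to 72.2%, lay above all AL libraries except AL-old 2 (74.9%). At chr16:6708720, in contrast, CR-old read 48.4, 39.2 and 55.2%, below each AL-old library (55.8 to 66.1%), but the model did not call the difference (adjusted p = 0.355).

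**Figure D4:**
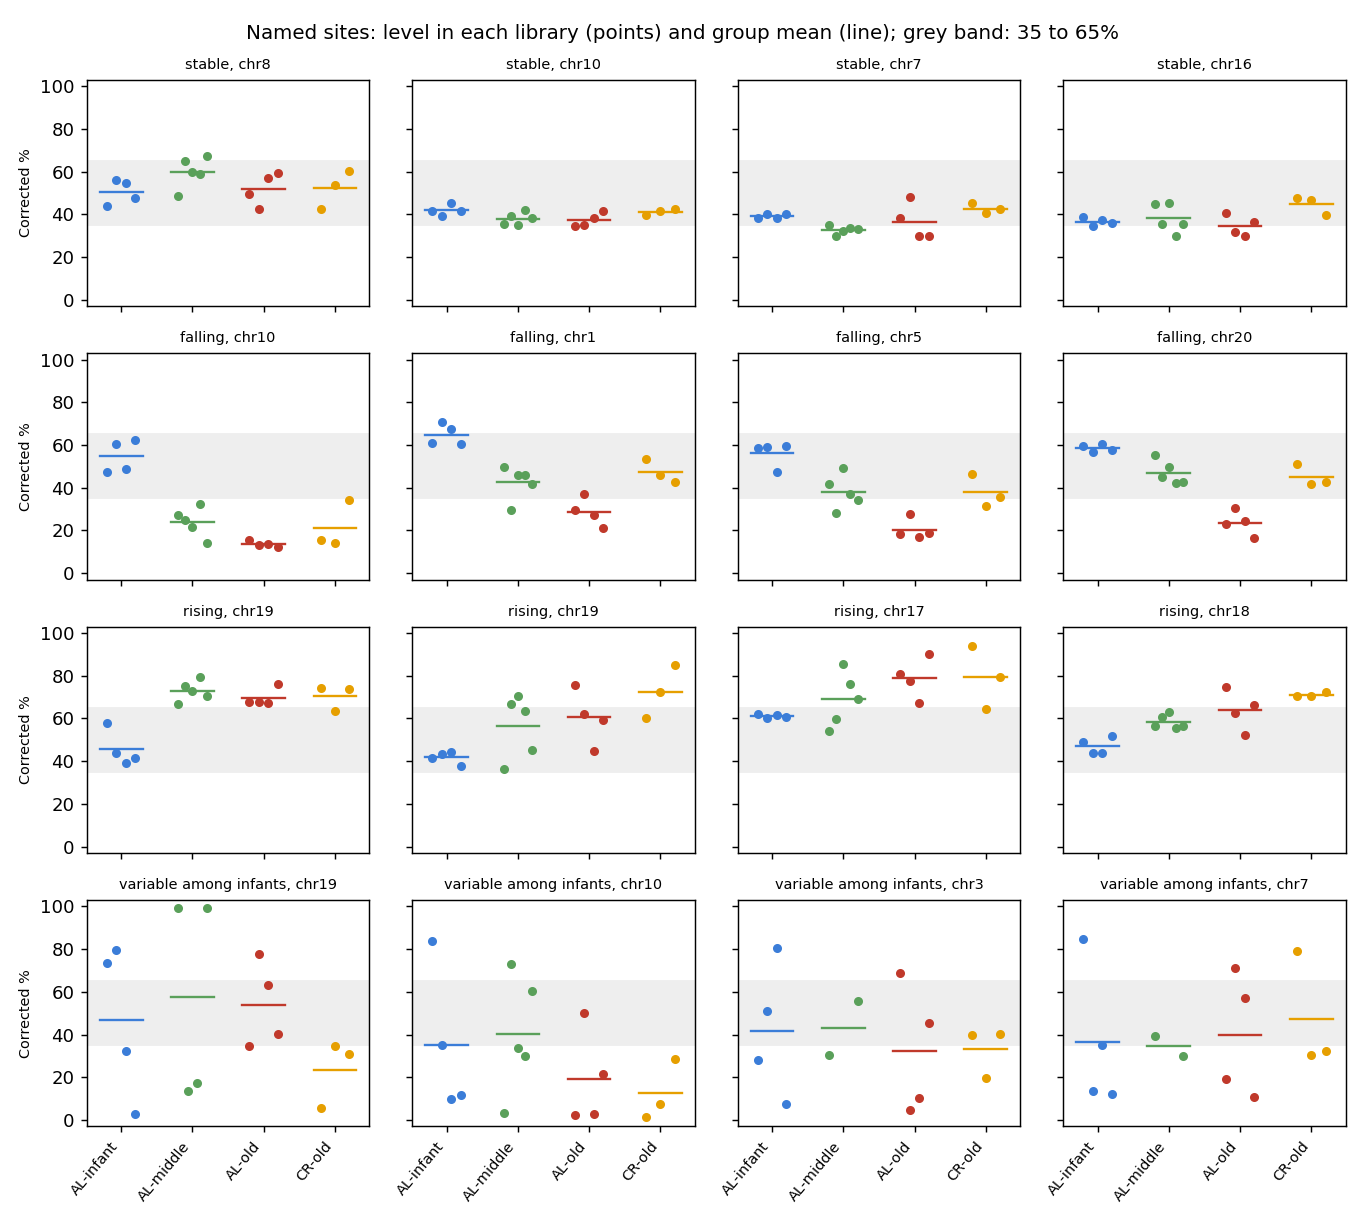
Corrected methylation (percent, y axis) of 16 named sites, 4 per class, in each library of the 4 groups, with the group mean as a line and the window of 35 to 65% in grey. Stable sites stay between 29.6 and 67.1%, falling sites reach their lowest mean in AL-old, rising sites lie above the infants in AL-old, and variable sites range from under 15% to over 65% within the infants. Falling and rising sites were named for their change from AL-infant to AL-old and variable sites for their infant range, which favours these patterns in advance.

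Sites variable among infants were chosen for their spread, and the named ones have the widest infant range. At chr19:16755907 the infants read 73.5, 79.7, 32.3 and 2.64%, AL-middle 17, 40, 43 and 46 read 99.5, 13.4, 17.2 and 99.3%, AL-old 34.6, 77.6, 63.0 and 40.4%, and CR-old 5.42, 34.6 and 30.8%, at 161 reads or more. Levels thus ran from 2.64 to 99.5% and did not separate the groups. At chr10:67375036 the infants read 84.0, 35.2, 10.0 and 11.8%, AL-middle 3.16 to 73.2%, AL-old 2.44 to 50.0% and CR-old 1.37 to 28.4%. A partner site 42 bp away gave nearly the same order of monkeys, with a Pearson r of 0.972 over the 13 libraries that had enough reads at both, and another 222 bp away had 0.818 over 16. The sites at chr3:13254944 (7.50 to 80.6% in infants) and chr7:130501449 (12.0 to 84.9%) had no partner in the window within 2000 bp. Over the class, the median SD was 13.3 points in AL-infant by the choice of the class, and 8.47 points in AL-middle and 8.38 in CR-old, where the stable sites had 6.36 and 5.08.

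Most of the sites had a nearest tested site at another level. Of the 1354 sites with another tested site within 2000 bp, the nearest was itself in the window of 35 to 65% at 349 (25.8%), while the window holds 6.16% of tested sites. Sites at 5 to 35%, which are 6.25% of tested sites, had a nearest site of their own level in 39.9%. The corresponding share was 46.2% for sites at 65 to 90% (17.9% of tested sites), 65.7% at 90% or more (23.8%) and 95.4% under 5% (45.8%). Of all 1354 nearest sites, 33.7% lay at 65 to 90%, 17.4% at 5 to 35%, 15.4% at 90% or more and 7.68% under 5%. Taken as stretches with gaps of at most 2000 bp, 396 sites (26.5%) formed 186 groups, of which 167 held 2 sites, 14 held 3 and 5 held 4. Sites within 500 bp can be the ends of the same restriction fragment. With such neighbours counted once, 79 sites of the window had another tested site within 2000 bp. At 12 of them (15.2%) it was in the window, which held 6.73% of the sites counted so. At 5 to 35% the like share was 4.35% (4 of 92), at 65 to 90% 33.5%, at 90% or more 46.9% and under 5% 83.3%.

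The infant level of the nearest tested site differed between classes. The classes also differed in their own infant level, with medians of 56.0% for falling, 50.2% for stable and 47.4% for rising sites. The part of that difference in the shares below was not tested. The nearest tested site of a falling site was at 65 to 90% in 43.2% and at 90% or more in 19.7%, whereas that of a rising site was under 5% in 22.2% and at 5 to 35% in 20.0%. For stable sites it was under 5% in 11.6%, at 5 to 35% in 21.01%, at 65 to 90% in 31.2% and at 90% or more in 9.42%. Their own window held 26.8% of the nearest sites of stable, 19.3% of falling, 31.1% of rising and 32.9% of variable sites. These shares describe 138 stable, 644 falling, 45 rising and 213 variable sites with a neighbour, and neighbours were not tested against each other.

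Consecutive sites that lay close together also moved together between monkeys. After the median of each library was taken off, the Pearson r over libraries had a median of 0.648 for the 131 pairs within 200 bp, 0.476 for 79 pairs at over 200 and up to 2000 bp, 0.0867 for 308 pairs up to 100000 bp and 0.0202 for 956 pairs farther apart. Pairs of variable sites within 200 bp, 17 in number, had a median of 0.899. Both sites were of the same class in 51.6% of the pairs within 200 bp, 56.6% at over 200 and up to 2000 bp, 39.1% up to 100000 bp and 34.5% beyond. Close pairs share library, depth and in part the same DNA fragments.

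**Figure D5:**
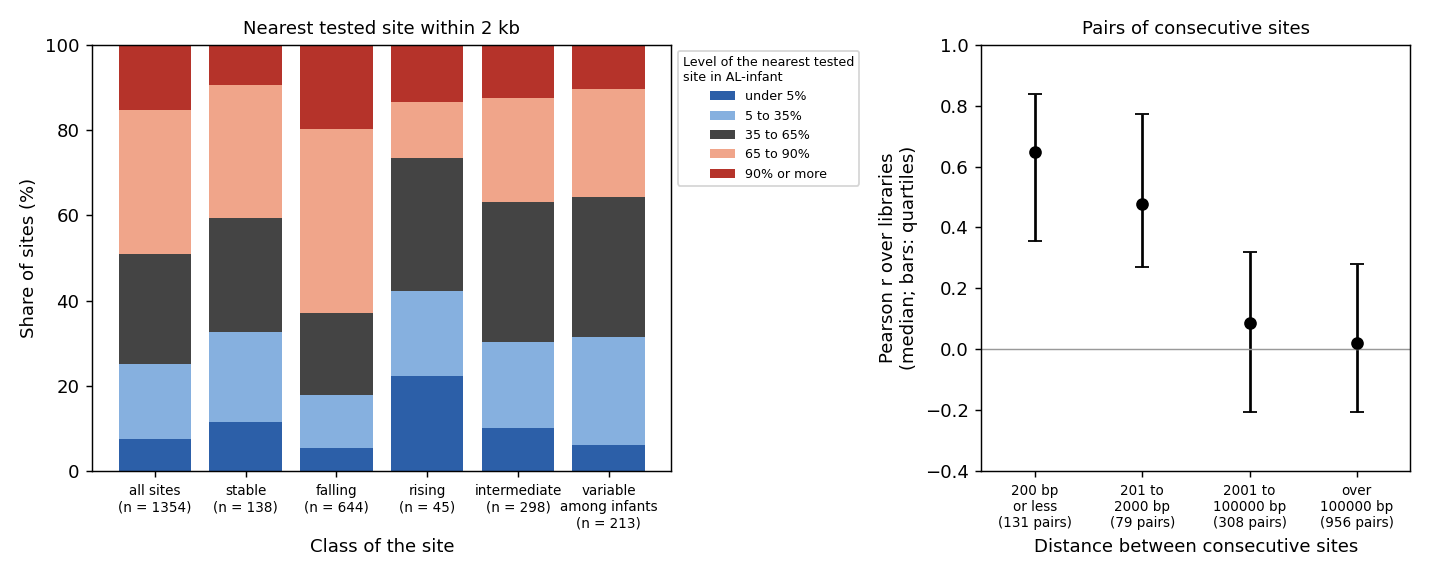
Left, level in AL-infant of the nearest tested site within 2000 bp, as a share of the sites of each class (percent); right, median Pearson r over libraries of consecutive sites of the window by their distance, with quartiles as bars. The median r is 0.648 within 200 bp and 0.0202 beyond 100000 bp.

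Larger stretches were few. On chr20, 4 sites lay in chr20:1018946-1021191 and 4 in chr20:1112239-1114434, and when gaps up to 10000 bp were allowed these grew to 6 sites in 13597 bp and 5 sites in 9868 bp. The first holds sites of several classes, 1 stable, 1 falling, 1 intermediate and 3 variable, with single readings from 7.21 to 86.4%. All 4 sites of chr10:80962262-80963959 were falling, with a mean of 53.996% in AL-infant, 52.6% in AL-middle, 35.2% in AL-old and 50.7% in CR-old. In chr19:45470949-45472657, with 2 stable and 2 intermediate sites, the means were 56.5, 59.4, 51.2 and 59.3%, and readings ran from 40.5 to 76.2%. At chr7:167668343-167668825 the 4 sites had means of 45.1, 43.5, 32.2 and 47.4%.

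Along the chromosomes, 37.7% of the sites lay within 5 Mb of the outermost listed SmaI site, against 30.8% of all tested sites, 44.4% of those at 65 to 90% and 18.7% of those under 5%. The share of tested sites that belonged to the window was highest on chr10 (167 of 1770, 9.44%) and chr8 (89 of 955, 9.32%) and lowest on chr6 (27 of 1024, 2.64%). Chr10 also held the most stable sites, 23 of its 167, and chr16 held 15 of its 95, where 10.4% of all the sites were stable. Another SmaI site lay within 200 bp of 67.02% of the sites, compared with 81.4% of those under 5% and 66.6% of those at 90% or more.

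The limits of the window cut through a continuum. Just inside the lower limit were chr8:146204517 with a mean of 35% in AL-infant and chr16:74148893 with 35.05%, and just outside were sites with 34.92 and 34.91%. Just inside the upper limit were sites with 64.997 and 64.993%, and just outside were sites with 65.03 and 65.05%. The infants of each of these sites spanned from 6.66 to 27.4 points.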

How the data were processed

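DREAM libraries of 16 rhesus monkeys were analysed, in the groups AL-infant (n = 4), AL-middle (n = 5), AL-old (n = 4) and CR-old (n = 3), taken from the labels. The authors counted reads with the unmethylated and the methylated signature at each SmaI site, and these counts were deposited with an uncorrected percent and an adjusted percent, which the authors derived from the spiked-in standards of 0, 25, 50 and 100%. Bowtie2 and SAMtools are named in the submitters' processing notes, without versions. The file headers and the study give the build as rheMac2, while the processing notes name mm10, and positions are given as the files have them. In each library the odds of the deposited adjusted percent were the uncorrected odds times 1 constant, within a relative gap of 0.001.

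Each pair of groups was compared site by site with a quasi-binomial logistic model on the counts plus 0.5 reads, with the log of the constant as offset, at sites that 3 or more libraries of both groups covered with 100 reads. Dispersions were moderated with limma 3.58.1 (R 4.3.3), and p-values from F tests were adjusted by Benjamini-Hochberg over all tested sites, with calls at 0.05. The fit was tested on simulated data in which the correction constants held exactly, so an error in a constant was not covered. Tables were made with Python 3.11.15, numpy 2.4.6, pandas 2.3.3 and scipy 1.17.1, and figures with matplotlib 3.10.9. Each replicate is another monkey.

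The sites, classes and rules were chosen with earlier results of these data known. Named stable sites come from the 5 stretches with the most stable sites, named falling and rising sites are the 5 with the largest change among those read in full in all 16 libraries without overlap of AL-infant and AL-old, and named variable sites the 4 with the largest infant range. In AL-old against AL-middle and CR-old against AL-old they are the 3 called sites in each direction with the largest difference and no overlap on either scale. Other stretches and the partners of a variable site were chosen after their values were seen. Alternatives were coverage minimums of 50 and 200 reads, no offset, limma on log2 odds, 1 fit of all libraries, calls that also needed 10 points, a window of 40 to 60%, other class limits and gaps, CR-old 4 alone, and each library left out. After seeing the data, CR-old 4 alone was also compared by its median difference and without the correction, and sex was added as a term to CR-old against AL-old. The sites on the sex chromosomes were not used.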

Additional observations from a re-analysis of the deposited data

Results flagged for a closer look

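In 105 sets of 4 or 5 values, each a group at a named site or of a library median, 7 had 1 monkey set apart from the rest by more than Dixon's limit, and chance gives this in about 1 of 20 sets. AL-infant 52 had a median of 58.1% over the falling sites, above the other infants at 53.98 to 54.5%. At chr5:122979514, a falling site, AL-infant 54 read 47.5% where the other infants read 58.7 to 59.3%, and AL-old 7 read 27.6% where the other AL-old monkeys read 17.01 to 18.8%. At chr16:6708720, a rising site, AL-infant 52 read 52.1% against 37.8 to 40.1% in the other infants, and AL-old 33 read 66.1% against 55.8 to 57.1%. AL-old 33 also stood above the other AL-old monkeys at chr19:684135, with 75.9% against 67.02 to 67.9%. At chr11:42483723 AL-old 7 read 40.1% against 24.2 to 25.4%. AL-old 7 has a correction constant of 0.319 and AL-old 33 one of 0.365, and the part of the constants in these readings was not tested.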

How the results depend on the processing

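Among recomputed counts, shares and medians, 179 stayed within 1.5 times the reported count or within the spread between libraries, 60 moved and 2 medians changed sign. Without the correction, AL-old against AL-middle gave 220 higher and 23 lower sites with a median of 1.54 points, CR-old against AL-old 2 and 75 with -0.44, AL-old against AL-infant 91 and 214 with -5.17, and AL-middle against AL-infant 33 and 624 with -7.33. With limma the higher and lower counts of AL-old against AL-middle were 4 and 206, those of CR-old against AL-old 0 and 0, and those of AL-middle against AL-infant 60 and 123, and AL-old was higher than AL-infant at 19. One fit of all libraries gave 807 and 36 for CR-old against AL-old and 56 and 106 for AL-middle against AL-infant. CR-old 4 alone gave 0 higher and 0 lower sites with and without the offset, and an uncorrected median of 1.51 points. The window of 40 to 60% held 930 sites, and its counts were 19 and 222 for AL-old against AL-middle, 285 and 11 for CR-old against AL-old, 21 and 280 for AL-old against AL-infant, and 70 and 115 for AL-middle against AL-infant. That window holds fewer sites by construction, and otherwise the cause was not tested.

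Leaving out 1 library gave 16 to 32 higher and 202 to 547 lower sites for AL-old against AL-middle, 265 to 543 and 4 to 23 for CR-old against AL-old, and 133 to 253 lower for AL-middle against AL-infant. The class counts, the medians and the other counts stayed within those limits. Class limits of 3 and 15 points gave 96 stable, 16 rising and 614 intermediate sites, and uncorrected values 340 stable, 458 falling and 74 rising. The share of neighbours in the window was 15.2% with those within 500 bp counted once, where the window held 6.73% of the sites counted so. At chr10:5674241 the difference of AL-old from AL-infant was -4.50 points corrected and 1.48 uncorrected. No paired analysis was possible because the replicate numbers name single monkeys and are not shared between groups. With sex as a term, CR-old against AL-old gave 0 higher and 0 lower sites, on a contrast that rests on the 1 female AL-old monkey. Depth limits single readings, least in CR-old 28 and most in AL-old 24.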
